A study of Mus musculus with 60 samples.

Results

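Nascent transcription was compared between neuronal progenitor cells (NPCs) treated with auxin for 2 h to deplete RAD21 and their controls. The comparison used 4 of the 60 libraries of the series, 2 controls and 2 libraries after 2 h of auxin, and 15995 of the 27665 transcripts in the count table, those with a mean count above 20 in either group. The NPCs were differentiated from a single mouse embryonic stem cell (mESC) line, GFP-AID-Rad21, in which RAD21 carries GFP and an auxin-inducible degron. Controls carried the same allele and received no auxin. Treated cells received 500 µM indole-3-acetic acid (IAA), the auxin that sends the tagged protein to degradation, for 2 h. All cells were labelled for 20 min with 0.5 mM 5-ethynyl uridine (5-EU), and the labelled RNA was captured and sequenced (EU-seq), so that the counts reflect RNA made during the pulse. The 4 libraries carry the same batch label. The NPC groups compared here hold no cells without the degron treated with IAA, so RAD21 loss and any effect of IAA itself cannot be told apart in them.

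RAD21 is the kleisin subunit of cohesin, the ring complex that extrudes chromatin into loops until it meets CTCF. Loops bring enhancers close to promoters within the same domain, and in neural progenitors such contacts are known at developmental genes for signalling ligands, receptors and transcription factors. Because the degron acts on protein, Rad21 RNA does not check the labels. Rad21 was 182 and 194 CPM (counts scaled to library size with TMM factors) in the controls and 208 and 217 CPM after IAA, with no change past the test (log2 fold change 0.13 ± 0.07 SE, edgeR adjusted p = 0.112).

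The libraries held 18879085 and 21351965 counts in the controls and 18620373 and 10755624 after IAA, so the second IAA library was the shallowest. The IAA replicates also agreed less well than the controls, with a chi-square per degree of freedom of 10.1 against 2.26 and a correlation of log2 CPM across genes of 0.993 against 0.997. Transcripts of 13 of 14 neural progenitor markers passed the count filter, among them Nes, Sox2, Fabp7 and Vim, and their summed level was 1876 to 2042 CPM in the 4 libraries. Hes5 was below the filter. Pluripotency markers summed to 16.6 to 25.6 CPM, and Pou5f1 was below the filter. Marker transcripts of other lineages were detected as well. Neuron markers summed to 447 to 458 CPM in the controls and 364 to 382 CPM after IAA (12 of 14 tested, Neurod1 and Neurog2 below the filter). Mesenchyme and neural crest markers summed to 1565 and 1693 CPM in the controls and to 1628 and 2177 CPM after IAA (7 of 8 tested), most of it from the collagen genes Col1a1 and Col1a2. Astrocyte markers summed to 300 and 284 CPM in the controls and to 235 and 261 CPM after IAA. Oligodendrocyte lineage markers summed to 303 and 293 CPM in the controls and to 402 and 385 CPM after IAA. Whether cells of these types were present or took part in the changes below was not tested. Fewer cells of a type and less labelled RNA per cell cannot be told apart in such bulk libraries.

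Every gene above the filter entered the quasi-likelihood test of edgeR, and p-values were adjusted over all of them by Benjamini-Hochberg. Calls needed an adjusted p under 0.05 together with a change of 2-fold or more, after the median log2 fold change of expressed genes (0.045) was subtracted from all. After 2 h, 187 genes (1.17% of those tested) were called lower and 53 (0.331%) higher, and without the first IAA library 86 were called higher. At an adjusted p under 0.05 alone, 1473 genes (9.21%) fell and 855 (5.35%) rose. The called lower genes were mostly protein coding (171 genes, with 12 lincRNAs) and had a median decrease of 2.33-fold, reaching 5.36-fold. Their median control level was 14.3 CPM. The called higher genes held 38 protein-coding genes and 14 lincRNAs, had a median increase of 2.57-fold and started low, at a median of 1.36 CPM in the controls, against 30.2 CPM over all tested genes.

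Genes of the aryl hydrocarbon receptor (AhR) changed in opposite directions. AhR is a ligand-activated transcription factor that binds planar aromatic and indole compounds and, with its partner ARNT, switches on genes of xenobiotic metabolism. Of the 4 tested AhR targets, 3 were called higher (beside 0.331% of all genes). The list was chosen with earlier results of these data known, so this count is no independent evidence. The targets Cyp1a2 and Aldh3a1 were below the filter, with at most 1 count in any of the 4 libraries. Cyp1a1, the classical AhR target encoding a cytochrome P450 monooxygenase, was at 0.214 and 0.190 CPM in the controls (4 counts in each) and at 18.3 and 15.7 CPM after IAA (log2 fold change 6.32 ± 0.27, edgeR adjusted p = 3.91e-07). Both IAA libraries stood far above both controls, and Cyp1a1 had the largest increase of all tested genes. Nqo1, which encodes a quinone reductase, rose from 21.5 and 21.7 CPM to 116 and 95.7 CPM (2.26 ± 0.10, adjusted p = 3.91e-07). Ahrr, which encodes the repressor that competes with AhR for ARNT, rose from 1.98 and 1.76 CPM to 7.94 and 6.11 CPM (1.89 ± 0.23, adjusted p = 0.000247). Tiparp, an ADP-ribosyltransferase gene and feedback target, went from 96.8 and 89.4 CPM to 195 and 184 CPM, which passed the test just under 2-fold (0.99 ± 0.07, adjusted p = 5.84e-06). In none of these 4 genes did the groups overlap, which also held in the higher direction for 28.5% of all tested genes.

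Ahr itself fell. It was at 66.2 and 63.7 CPM in the controls and at 14.4 and 19.6 CPM after IAA, a decrease of 2.01 ± 0.12 (SE) on the log2 scale (log2 fold change -2.01, adjusted p = 3.08e-06). Both IAA libraries lay well below both controls. The antisense transcript Gm48236, which overlaps Ahr, was also called lower (-1.26), and reads of the pair cannot be separated unless strand was used in counting, which the sources used here do not state for gene counts. The overlap covers 1.67% of the Ahr gene body. Of the partners, Arnt2 fell by 0.37 on the log2 scale, though not when the trend of changes along gene length was removed (-0.14, adjusted p = 0.253), while Arnt (-0.09) did not pass the test.

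Promoters of these AhR targets are shown because the genes moved together and because the receptor's core motif, GCGTG, is known. The windows run from 250 bases before to 50 after the RefSeq start (GRCm38.p6) and read 5′ to 3′ on the gene's strand. Capitals mark GCGTG or its reverse complement. The regions are chr9:57697363-57697662, plus strand for Cyp1a1, chr13:74292282-74292581, minus strand for Ahrr, chr3:65528197-65528496, plus strand for Tiparp and chr8:107403156-107403455, minus strand for Nqo1.
Cyp1a1: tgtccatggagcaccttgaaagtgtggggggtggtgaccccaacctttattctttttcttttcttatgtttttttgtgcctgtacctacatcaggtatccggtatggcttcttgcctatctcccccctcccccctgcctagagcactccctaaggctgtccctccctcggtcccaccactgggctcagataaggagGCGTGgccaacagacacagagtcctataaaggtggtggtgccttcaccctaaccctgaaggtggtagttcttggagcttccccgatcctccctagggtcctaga
Ahrr: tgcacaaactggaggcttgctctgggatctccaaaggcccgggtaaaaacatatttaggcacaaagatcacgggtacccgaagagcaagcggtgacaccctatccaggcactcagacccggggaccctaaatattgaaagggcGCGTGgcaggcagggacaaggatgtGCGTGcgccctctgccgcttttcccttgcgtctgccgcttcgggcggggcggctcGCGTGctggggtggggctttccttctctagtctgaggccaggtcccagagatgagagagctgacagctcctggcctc
Tiparp: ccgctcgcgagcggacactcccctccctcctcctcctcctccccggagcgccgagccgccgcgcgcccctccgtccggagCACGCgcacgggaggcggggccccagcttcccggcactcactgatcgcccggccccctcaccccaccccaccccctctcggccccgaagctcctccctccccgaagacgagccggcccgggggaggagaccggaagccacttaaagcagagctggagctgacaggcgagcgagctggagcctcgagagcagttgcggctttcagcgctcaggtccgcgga
Nqo1: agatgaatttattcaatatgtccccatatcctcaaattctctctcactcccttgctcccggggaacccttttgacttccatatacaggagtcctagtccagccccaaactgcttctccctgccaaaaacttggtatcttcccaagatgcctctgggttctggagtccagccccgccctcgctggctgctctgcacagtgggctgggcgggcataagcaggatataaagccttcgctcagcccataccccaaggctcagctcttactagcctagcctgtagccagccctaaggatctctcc
The Cyp1a1 window held 1 match, that of Ahrr 3 and that of Tiparp 1, while the Nqo1 window held 0. The motif is short and common: it occurred on either strand in 5636 of 10928 tested genes that had a RefSeq window within 500 bases of the counted start (51.6%), in 13 of 29 called higher genes (44.8%) and in 49 of 122 called lower genes (40.2%).

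The largest decreases, taken among called genes with a mean of at least 2 CPM and groups that did not overlap, are shown for 14 genes, and the largest increases for 10. Groups did not overlap in 29.3% of all tested genes in the lower and 28.5% in the higher direction. Cpne8, which encodes a calcium-dependent phospholipid-binding copine (chr15:90487483-90679432 on the minus strand, mm10), had the largest decrease of them. It was at 335 and 316 CPM in the controls and at 64.5 and 70.0 CPM after IAA (log2 fold change -2.33 ± 0.07, adjusted p = 7.54e-08), a 5.01-fold decrease with both IAA libraries far below both controls. Ccdc85a, a coiled-coil protein gene, was at 63.9 and 63.9 CPM in the controls and at 15.1 and 16.2 CPM after IAA (-2.08 ± 0.09). Dapk2, which encodes a death-associated protein kinase, fell from 20.8 and 19.5 CPM to 5.19 and 5.64 CPM (-1.95 ± 0.14). In each of these genes the replicates of a group lay much closer to each other than the groups did.

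The Cpne8 promoter is shown as the one at the head of this list, and because it held the 1 match of its window to a short form of the CTCF core motif (RefSeq, GRCm38.p6, chr15:90679339-90679638, minus strand). Capitals mark that match.
Cpne8: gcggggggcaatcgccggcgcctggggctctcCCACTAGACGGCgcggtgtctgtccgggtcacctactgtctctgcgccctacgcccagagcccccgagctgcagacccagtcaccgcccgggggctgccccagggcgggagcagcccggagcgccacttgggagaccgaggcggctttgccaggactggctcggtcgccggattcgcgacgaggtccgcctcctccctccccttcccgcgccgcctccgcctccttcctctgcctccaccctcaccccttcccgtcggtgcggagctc
This motif, searched on both strands, occurred in 16 of 122 called lower genes with a window (13.1%), in 1 of 29 called higher genes (3.45%) and in 1414 of 10928 tested genes (12.9%).

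Of the other genes in this group, Edn1, which encodes the vasoactive peptide endothelin 1, was at 7.45 and 4.41 CPM in the controls and at 1.32 and 1.295 CPM after IAA (-2.21 ± 0.32). Il15, the interleukin 15 gene, fell from 7.19 and 8.12 CPM to 2.86 and 2.04 CPM (-1.64 ± 0.22), and Rspo2, the gene for the Wnt-potentiating R-spondin 2, from 5.84 and 5.98 CPM to 1.85 and 1.67 CPM (-1.77 ± 0.22). Both groups were apart in all of these. Hpgd, the gene of the enzyme that inactivates prostaglandins, fell by 2.27 on the log2 scale, and Ptger2, which encodes a prostaglandin E2 receptor, by 2.24 from 2.73 and 2.80 CPM to 0.741 and 0.370 CPM. Ptger2 was named after its values were seen. The others of the 14 were the potassium channel subunit gene Kcns3 (-1.80), the adrenergic receptor gene Adra1d (-1.64), the Wnt antagonist gene Dact1 (-1.66), 4930523C07Rik (-1.71) and the lincRNA Gm41414 (-1.73), besides Wnt7a and Ahr.

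Among the largest increases, Ido2, which encodes a tryptophan-catabolising dioxygenase, rose from 1.29 and 0.854 CPM to 9.10 and 8.70 CPM (3.02 ± 0.24, adjusted p = 1.75e-05). Klri1, a killer cell lectin-like receptor gene, rose from 2.04 and 1.80 CPM to 10.8 and 10.6 CPM (2.44 ± 0.19). Ccno, a cyclin gene needed for multiciliated cells, rose from 0.804 and 0.332 CPM to 5.03 and 3.42 CPM (2.91 ± 0.38). The controls were low in each of these genes and the groups far apart. The same held for the melanosome transport gene Mlph (2.38), the interferon-inducible gene Ifi207 (2.28) and the cadherin gene Cdh26 (1.87), with control means of 0.779 to 2.37 CPM. Dpep1, a dipeptidase gene (2.39), lies wholly inside the annotated transcript Gm20388 on the same strand, and its counts are uncertain for that reason. In the interleukin 10 family 1 of 4 genes passed the filter: Il19 had 4 and 0 counts in the controls and 3.07 and 2.41 CPM after IAA, and was called higher (adjusted p = 0.000348).

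**Figure D1:**
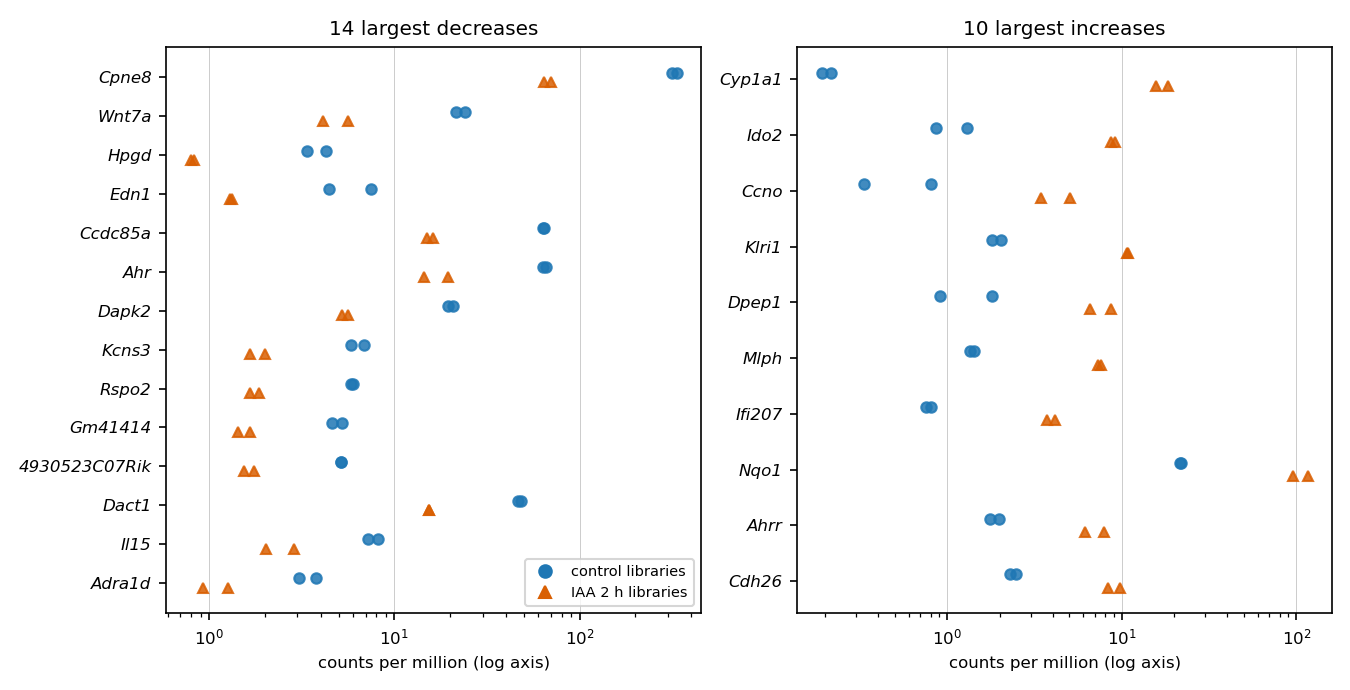
Level of the 14 genes with the largest decreases (left) and the 10 with the largest increases (right), in CPM on a log axis. Each point is 1 library, circles for the 2 controls and triangles for the 2 libraries after 2 h of IAA; the groups do not overlap in any of these genes, as the choice of genes required.

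Of 11 tested Wnt ligands, 3 were called lower and 0 higher (beside 1.17% and 0.331% of all genes), and 5 fell and 1 rose at an adjusted p under 0.05 alone. These secreted lipid-modified proteins pattern the neural tube and keep progenitors dividing. Their median log2 fold change was -0.29, against -0.04 over all tested genes. Wnt7a fell from 24.0 and 21.4 CPM to 4.13 and 5.64 CPM (-2.30 ± 0.16, adjusted p = 7.37e-06). Wnt11, a non-canonical ligand, fell from 7.88 and 7.45 CPM to 2.91 and 2.41 CPM (-1.54 ± 0.20). Both IAA libraries lay below both controls in each. Wnt3, a canonical ligand, fell from 3.22 and 3.42 CPM to 1.43 and 1.94 CPM (-1.07 ± 0.27, adjusted p = 0.0262), a call that was lost with DESeq2 (adjusted p = 0.131), when either control was left out and when the first IAA library was left out. Wnt7b (-0.51) and Wnt2b (-0.59) fell by less than 2-fold, and Wnt5a rose (0.23), though not with the length trend removed (adjusted p = 0.138). The other 5 tested ligands did not pass. Members named here and below that passed the test at less than 2-fold were chosen after their values were seen. Counts for the lists here and below stand beside 1.17% of all tested genes called lower and 0.331% called higher. At an adjusted p under 0.05 alone, those shares are 9.21% lower and 5.35% higher. Statements that groups were apart stand beside 29.3% of all tested genes apart in the lower direction and 28.5% in the higher. No list was tested as a set.

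The Wnt receptors and response genes had 0 calls among 27 tested, with 3 that fell and 5 that rose at under 2-fold. Axin2, the most general Wnt response gene and a brake on the pathway, rose from 56.4 and 56.9 CPM to 107 and 98.8 CPM (0.82 ± 0.07, adjusted p = 1.85e-05). The Frizzled receptor genes Fzd7 (0.74), Fzd4 (0.70) and Fzd2 (0.37) rose. Lgr4, a receptor for R-spondins, fell (-0.51), as did Znrf3, the ligase that removes Frizzled from the membrane (-0.39), and Nkd2, an inhibitor of Dishevelled (-0.67). The co-receptor gene Lrp6, the member with the highest level, went from 307 and 305 CPM to 294 and 276 CPM and did not pass the test. With the length trend removed, Znrf3 (adjusted p = 0.229) no longer passed.

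In the EGF and FGF list the receptor gene Egfr changed most. NPCs are commonly grown with EGF and FGF2, which act through receptor tyrosine kinases and ERK. Egfr, the EGF receptor gene (chr11:16752211-16918158, plus strand), was at 420 and 420 CPM in the controls and at 170 and 157 CPM after IAA (-1.40 ± 0.07, adjusted p = 1.87e-06). The groups were far apart. Its ligand gene Areg, amphiregulin, fell from 4.50 and 6.07 CPM to 2.91 and 2.13 CPM (-1.07 ± 0.25, adjusted p = 0.0177), a call that was lost without the second control or the second IAA library. Of 24 tested genes of FGF, EGF and ERK feedback, these 2 were called lower (beside 1.17% of all genes). A further 6 fell and 2 rose at under 2-fold. The feedback inhibitor gene Spry1 fell from 325 and 330 CPM to 185 and 156 CPM (-0.99 ± 0.08, adjusted p = 3.04e-05), as did Spry2 (-0.44), Spry4 (-0.40) and the receptor gene Erbb4 (-0.76). The ERK phosphatase gene Dusp4 rose (0.45). With the length trend removed, 5 of the list fell in place of 8, and Erbb4, whose body spans 1080 kb, was no longer among them (-0.25, adjusted p = 0.178). Fgfr2, the member with the highest level, was at 1707 CPM on average in the controls and 1701 CPM after IAA, with overlapping groups. Its counted body spans 2960 kb, so these counts may include reads of other genes within it. With the length trend removed the value of Fgfr2 was 0.49 (adjusted p = 0.00381), against -0.05 before. That rise comes from the correction for this body length.

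Of the 23 immediate early genes, transcription factors and regulators induced within minutes of a stimulus, 1 was called: Fosb fell from 15.3 and 14.05 CPM to 4.76 and 5.09 CPM (-1.63 ± 0.15, adjusted p = 5.83e-05). Fos (-0.51), Egr1 (-0.47) and Btg2 (-0.33) fell at under 2-fold, while Fosl2 (0.42) and Egr3 (0.38) rose, the latter not with the length trend removed (adjusted p = 0.152). Jun and Junb had overlapping groups. Of the Myc family, Myc fell just under the fold limit, from 67.9 and 62.7 CPM to 35.6 and 32.7 CPM (-0.97 ± 0.08, adjusted p = 3.04e-05), and Mycn (0.09) and Mycl (0.12) did not pass the test.

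Axon guidance genes moved both ways. Semaphorins are secreted or membrane-bound cues, neuropilins and plexins their receptors, and netrins act through DCC and UNC5 receptors. Of 41 tested, 3 were called lower and 3 higher. Nrp1, which encodes the neuropilin 1 receptor of class 3 semaphorins and VEGF, fell from 279 and 288 CPM to 131 and 119 CPM (-1.22 ± 0.07, adjusted p = 3.08e-06). The ligand genes Sema3c (-1.19 ± 0.10) and Sema3e (-1.06 ± 0.09) fell with it. Sema3f, a ligand that acts mainly through neuropilin 2, rose from 14.3 and 14.7 CPM to 40.0 and 33.3 CPM (1.30 ± 0.11). The membrane-anchored Sema7a rose from 4.13 and 3.89 CPM to 9.42 and 11.7 CPM (1.33 ± 0.18), and the netrin receptor gene Unc5b from 64.7 and 68.2 CPM to 150 and 157 CPM (1.16 ± 0.07, adjusted p = 2.18e-06). None of these 6 genes had overlapping groups. A further 10 genes fell at under 2-fold, among them Plxna2 (-0.85), Plxna4 (-0.83), Sema5a (-0.82), Sema6d (-0.76), Dcc (-0.80), Robo1 (-0.55) and Robo2 (-0.56). These genes are long: the tested members had a median gene body of 115 kb, against 24.0 kb over all tested genes. With the trend along gene length removed, 8 in place of 13 fell, 4 in place of 3 rose, and the calls of Sema3c and Sema3e ended (-0.96 and -0.78), while Nrp1 (-1.01) and the 3 increases were still called. Robo1 (adjusted p = 0.169) and Robo2 (0.363) then no longer passed, nor did Slit1, Ntn1 and Unc5d, and Slit2 rose (0.40, adjusted p = 0.0487).

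Of the 21 tested Eph receptors and ephrins, contact-dependent guidance molecules, Ephb1 was called lower, from 97.4 and 95.2 CPM to 47.7 and 46.3 CPM (-1.08 ± 0.07, adjusted p = 4.91e-06). Its gene body spans 433 kb, and with the length trend removed its change was -0.70. The receptor genes Epha3 (-0.88), Epha4 (-0.74), Epha5 (-0.47), Epha1 (-0.42) and Ephb2 (-0.58) fell at under 2-fold, and Ephb4 (0.23) and Efna4 (0.36) rose. Of these, Epha5 (adjusted p = 0.445), Ephb4 (0.0961) and Efna4 (0.0897) no longer passed with the length trend removed. Efnb2, the member with the highest level, went from 369 and 382 CPM to 348 and 335 CPM and did not pass.

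In the TGF-beta, activin and BMP list, 1 of 34 tested genes was called. Inhba, which encodes the activin A subunit, fell from 63.0 and 68.9 CPM to 31.5 and 33.8 CPM (-1.07 ± 0.08, adjusted p = 1.85e-05), and its change fell just under the 2-fold limit without the second control. A further 8 genes fell at under 2-fold, among them the ligand genes Tgfb2 (158 and 159 to 90.6 and 97.3 CPM, -0.80), Bmp4 (-0.55) and Bmp5 (-0.51), the co-receptor gene Tgfbr3 (268 and 264 to 143 and 144 CPM, -0.94), the receptor gene Tgfbr2 (-0.46) and the BMP target Id1 (-0.51). Smad7, which encodes the feedback inhibitor of TGF-beta signalling, rose from 107 and 103 CPM to 178 and 160 CPM (0.64 ± 0.07, adjusted p = 9.77e-05), with Bmp1 (0.23) and Gdf11 (0.30), which both no longer passed with the length trend removed (adjusted p = 0.0723 and 0.0662). None of the genes named as falling had overlapping groups. Fstl1, with the highest level, had overlapping groups.

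Sonic hedgehog genes moved both ways. This pathway patterns the ventral neural tube. Hhip, which encodes a membrane protein that sequesters hedgehog ligands, fell from 28.2 and 29.8 CPM to 11.8 and 14.1 CPM (-1.23 ± 0.11, adjusted p = 6.19e-05), the 1 call among 12 tested. The co-receptor genes Boc (374 and 370 to 230 and 223 CPM, -0.76) and Cdon (-0.71) fell at under 2-fold. Ptch1, the receptor and target gene, rose from 345 and 346 CPM to 646 and 599 CPM (0.80 ± 0.07, adjusted p = 2.81e-05), and the ligand gene Shh (0.34) and the co-receptor gene Gas1 (0.33) rose. Gli1, another target, did not pass (0.10), and neither did Gli3 (963 and 945 to 919 and 743 CPM, -0.24, adjusted p = 0.221). With the length trend removed, Shh (adjusted p = 0.0564) and Gas1 (0.0795) no longer passed, and Gli2 did (0.37, adjusted p = 0.00864).

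Neural progenitor transcription factors rose more often than they fell. Of 29 tested, 10 rose (beside 5.35% of all genes) and 3 fell (beside 9.21%) at an adjusted p under 0.05, and their median log2 fold change was 0.23. All 10 rose by less than 2-fold. Sox2, which maintains progenitor identity, went from 32.1 and 31.2 CPM to 51.5 and 55.3 CPM (0.70 ± 0.08, adjusted p = 0.000109). Sox1 (0.70), the POU factors Pou3f2 (0.71) and Pou3f4 (0.51), Zic2 (0.62) and Zic1 (0.23), Olig1 (0.60), Olig2 (0.38) and Nkx6-1 (0.46) were among the others. They were higher in both IAA libraries than in both controls. The genes are short, with a median of 7.71 kb over the list, and with the length trend removed 8 rose and 1 fell. Of those named, Pou3f4 (adjusted p = 0.128), Zic1 (0.104) and Olig2 (0.0516) then no longer passed, while Meis1 did (0.43, adjusted p = 0.0171). Prdm1, a zinc finger repressor, was the called member, falling from 2.20 and 1.76 CPM to 0.265 and 0.555 CPM (-2.42 ± 0.42, adjusted p = 0.00315), and Prdm16 (-0.71) and Nfix (-0.26) fell, though neither with the length trend removed (adjusted p = 0.0626 and 0.285). Tcf4, with the highest level, did not pass (adjusted p = 0.0569). Snai2, a repressor from the mesenchyme and neural crest markers, fell from 38.6 and 39.8 CPM to 12.5 and 15.4 CPM (-1.56 ± 0.11), while Twist1 (0.55) and Tfap2a (0.88) of the same markers rose.

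**Figure D2:**
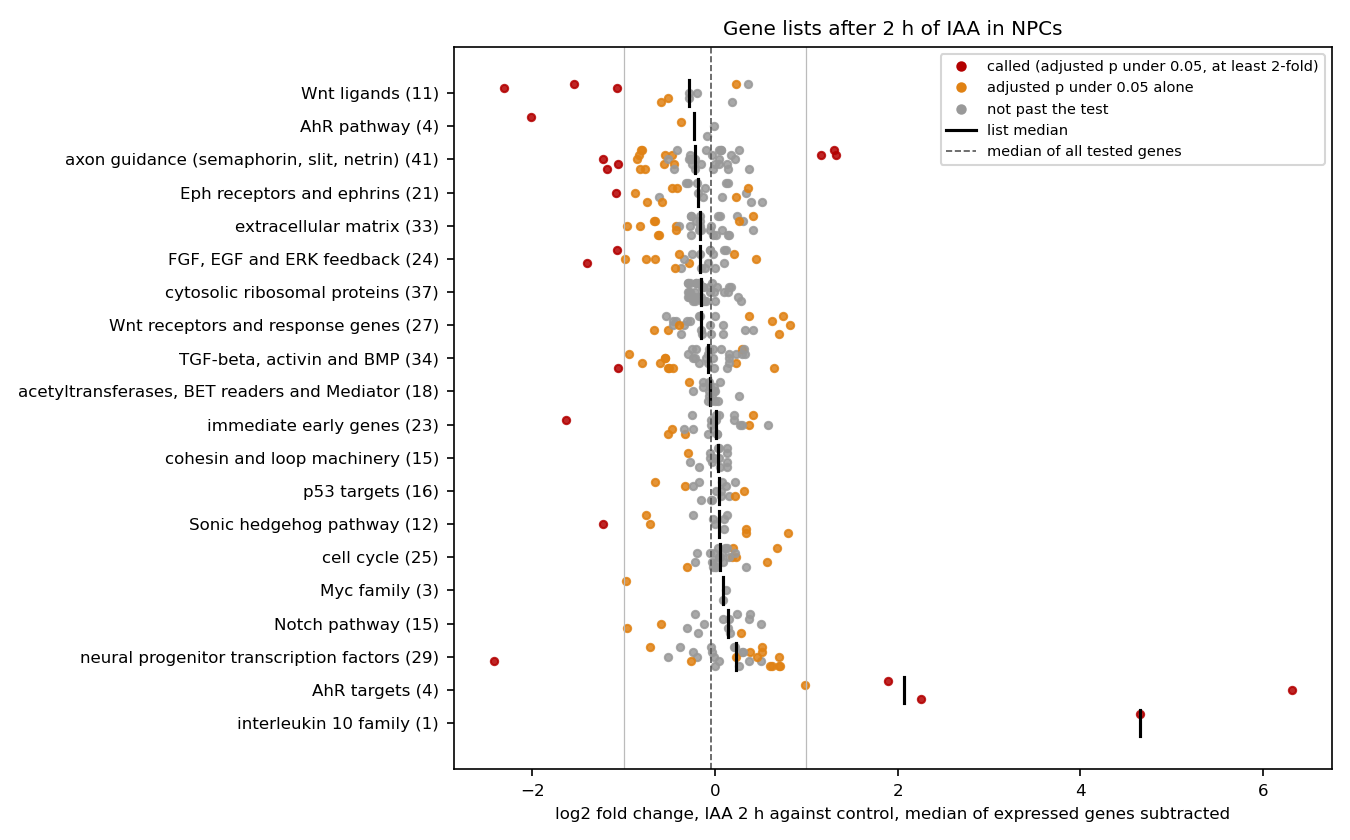
Log2 fold change after 2 h of IAA for the tested members of 20 gene lists (number tested in brackets), with 1 point per gene; black bars are list medians, the dashed line is the median of all tested genes (-0.04) and grey lines mark 2-fold. AhR targets lie to the right and Wnt ligands to the left, with list medians of 2.07 and -0.29, and most lists are centred near 0 with single called genes at their edges. The lists were chosen with earlier results of these data known.

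Several lists had 0 calls. None of the 15 genes of cohesin and loop machinery was called, and Pds5b, a cohesin regulator, was the member that passed the test (234 and 233 to 203 and 187 CPM, -0.30). With the length trend removed Pds5b did not pass (adjusted p = 0.47), and Stag1, a cohesin subunit gene, rose (0.46, adjusted p = 0.00801). The 37 cytosolic ribosomal protein genes held 0 that passed, with a median of -0.16, and 5 fell with the length trend removed. The cell cycle list held 0 calls among 25, with Cdkn1b, the p27 inhibitor gene, rising from 49.9 and 54.6 CPM to 78.6 and 81.5 CPM (0.57 ± 0.07) and Cdk6 falling (-0.30), the latter not with the length trend removed (adjusted p = 0.739). Of 16 p53 targets 2 fell and 2 rose at under 2-fold, and Cdkn1a did not pass (0.22). Of 18 genes for acetyltransferases, BET readers and Mediator, 1 passed, Cdk8 (-0.28, and adjusted p = 0.127 with the length trend removed), and Crebbp and Ep300 did not. In the Notch list Notch2 (-0.59) and Hey2 (-0.96) fell and Hes1 (0.29) rose among 15, the last not with the length trend removed (adjusted p = 0.212). The extracellular matrix list held 0 calls among 33, with 8 that fell, such as Fn1 (619 and 615 to 351 and 457 CPM, -0.66), Col11a1 (-0.82) and Tnr (-0.96), and 2 that rose. Of the neuron markers 4 of 12 fell: Syt1, a synaptic vesicle protein gene (70.1 and 63.5 to 37.9 and 34.6 CPM, -0.92), Snap25 (-0.76), Rbfox3 (-0.59) and Map2 (-0.41). With the length trend removed, Rbfox3 (adjusted p = 0.261) and Map2 (0.384) did not pass.

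A list of 7 tested NPC genes, shown as examples in earlier work on these same samples and so no independent evidence, held 6 that fell. Enc1 went from 346 and 342 CPM to 184 and 171 CPM (-0.997 ± 0.07, adjusted p = 7.72e-06), just under 2-fold. Tnfrsf21 (-0.94), Kitl (-0.67) and Fbn2 (-0.61) fell too, besides Myc and Inhba, and Gli3 did not pass the test.

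Longer genes were lower after IAA. The median log2 fold change was 0.02 for gene bodies under 30 kb, -0.06 from 30 to 90 kb, -0.22 from 90 to 240 kb and -0.46 over 240 kb. The same order held in each replicate pair, reaching -0.35 and -0.49 (not centred) over 240 kb. The share of genes called lower went from 0.684% of 9068 to 0.861% of 4183, 2.70% of 1927 and 4.91% of 693, while that of genes called higher was 0.386%, 0.335%, 0.104% and 0.289%. Called lower genes had a median length of 79.7 kb (184 with a length), called higher genes 21.9 kb and all tested genes 24.0 kb. The trend was also present after 4 h of IAA in NPCs (-0.52 over 240 kb), which share these controls, and not in mESCs after 4 h, where genes over 240 kb had a median of 0.11. Removing the trend, an alternative chosen after it was seen, left 123 genes called lower, 115 of them among the 187, and 50 higher. Of the 24 genes with the largest changes all were still called.

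**Figure D3:**
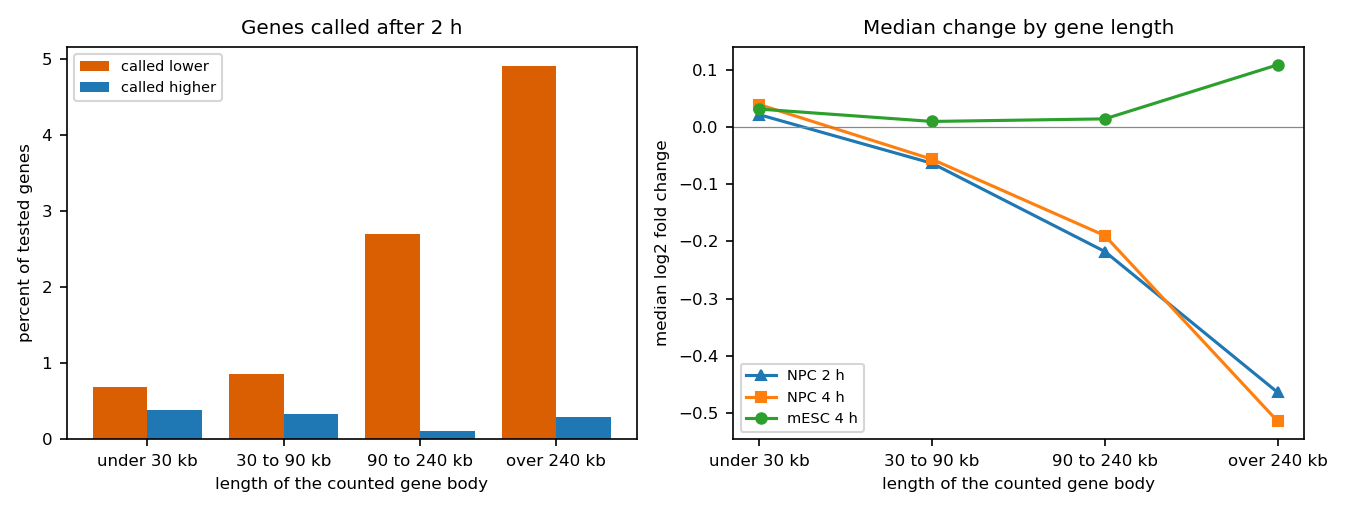
Left, percent of tested genes called lower or higher after 2 h of IAA in 4 classes of gene body length; right, median log2 fold change per class after 2 h and 4 h in NPCs and 4 h in mESCs. Called lower genes rise from 0.684% to 4.91% with length, and the NPC medians fall to -0.46 and -0.52 while that of mESCs is 0.11.

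Some called genes were next to each other among the tested genes. Of 184 called lower genes with a position, 27 (14.7%) were in 15 pairs of neighbours, and 6 of 53 called higher genes were in 3 pairs. Neighbours were taken among the tested genes, so untested transcripts may lie between them. Whether such pairs are more frequent than among other tested genes was not tested. The ABC transporter genes Abca8b (-1.12), Abca8a (-1.51) and Abca9 (-1.19) are consecutive tested genes on chromosome 11. So are Evi2 (-1.12), Evi2b (-1.11) and Evi2a (-1.32), of which the first pair overlaps. Angpt1, the angiopoietin 1 gene (-1.17), and Rspo2 are neighbours on chromosome 15, separated by 343817 bases. Other pairs overlap on opposite strands, such as Ahr with Gm48236, Adamts9 with A730049H05Rik and, among the higher genes, Veph1 (1.32) with Ptx3 (1.46), so their counts may share reads. Another higher pair was 4930579F01Rik (1.55) with the alcohol dehydrogenase gene Adh7 (2.12). Gm10800 and Gm10801 are neighbours too, and the IAA replicates of Gm10800 lay far apart (7.31 and 1.76 CPM).

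To see how the state at 2 h differed from that at 4 h without the shared controls, the 4 h libraries were tested against the 2 h ones. After 4 h, 46 genes were lower (0.289% of 15942) and 5 higher (0.0314%), the latter rising to 86 without the first 2 h library, 36 without the second, and 11 and 12 without the first and second 4 h libraries. The count of lower genes was 80 without the first 2 h library. CPM were scaled within each comparison, and those of this one differ slightly from those above. Kif26b, a kinesin gene with a body of 410076 bases, was at 115 to 125 CPM at 2 h and at 29.3 to 31.3 CPM at 4 h (-1.97 ± 0.08, adjusted p = 3.04e-07). Its values at 2 h, 122 and 112 CPM, did not differ from the controls past the test (121 and 121 CPM, -0.10, adjusted p = 0.665). Ccdc85a went on falling, from 16.1 to 4.54 CPM on average (-1.80 ± 0.15), as did the collagen gene Col25a1, from 40.7 to 12.2 CPM (-1.72 ± 0.10), and Cntnap4, a contactin-associated protein gene (-1.68). The transcript Gm48749 was lower as well (-2.03). Fosb went the other way, from 4.89 and 5.23 CPM at 2 h to 16.7 and 26.6 CPM at 4 h (2.12 ± 0.22, adjusted p = 0.000458). Both 4 h libraries were above both 2 h libraries, and against the controls Fosb was at 0.50 on the log2 scale at 4 h. The other 4 higher transcripts had at most 13.1 CPM on average (log2 differences 1.00 to 1.34), among them 2210408F21Rik.

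The 1 h libraries were counted within 90 kb of the start site, so 2 h was tested against 1 h only for the 13163 genes whose control counts are the same in both measures. CPM were scaled over these genes alone and are higher than those above, such as a mean of 1.90 for Edn1 at 2 h in place of 1.31. At 2 h, 32 genes were lower (0.243%) and 1 higher (0.0076%). The latter count was 31 without the first 2 h library, 7 without the second, and 4 and 2 without the first and second 1 h libraries, and the former was 59 without the first 2 h library. Nptx1, which encodes neuronal pentraxin 1, was at 28.4 and 29.6 CPM at 1 h and at 6.55 and 8.92 CPM at 2 h (-1.95 ± 0.16, adjusted p = 6.79e-05), and its change against the controls was 2.54 at 1 h (adjusted p = 2.02e-11) and 0.59 at 2 h. Nipal1, a magnesium transporter gene, was at 11.2 CPM on average at 1 h and 3.08 CPM at 2 h (-1.85), with changes against the controls of 1.11 and -0.74. Edn1 fell between 1 and 2 h from 6.09 to 1.90 CPM (-1.68 ± 0.26), and the cytokine gene Tslp from 10.5 to 3.34 CPM (-1.60 ± 0.23). Wnt7a (-1.36) and Dact1 (-1.11) were also lower at 2 h than at 1 h. The largest of these differences, that of Gm10800 (-2.43), rested on replicates that varied by over 2-fold within each group, and the 1 higher transcript was Gm13780 (1.48).

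For the members above, the changes against the same controls at 1, 2 and 4 h were -1.14, -2.33 and -3.75 for Cpne8, -0.94, -2.30 and -2.96 for Wnt7a, -1.18, -2.01 and -2.54 for Ahr, and -0.42, -1.40 and -2.40 for Egfr. For Cyp1a1 they were 6.55, 6.32 and 5.69, for Ahrr 2.63, 1.89 and 1.32, for Sema7a 2.46, 1.33 and 0.70 and for Nqo1 1.90, 2.26 and 2.34. The A-485 libraries (10 µM for 1 h, which blocks the catalytic activity of CBP/p300) gave -4.50 for Cpne8, -4.09 for Wnt7a, -3.57 for Ahr and -4.31 for Egfr, and -1.36 for Nqo1 and 0.04 for Ahrr. The median change with A-485 was -2.03 over the 33 called higher genes tested there and -2.76 over the 177 called lower genes. All these comparisons share the 2 control libraries. The 1 h and A-485 changes were counted over at most the first 90 kb, those at 2 and 4 h over whole gene bodies. Cpne8 (191950 bases) and Egfr (166 kb) are longer than 90 kb, so their measure differs between times. In the direct test of 4 h against 2 h, Cpne8 passed (-1.42), while Wnt7a (-0.66, adjusted p = 0.189) and Ahr (-0.53, adjusted p = 0.0954) did not.

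**Figure D4:**
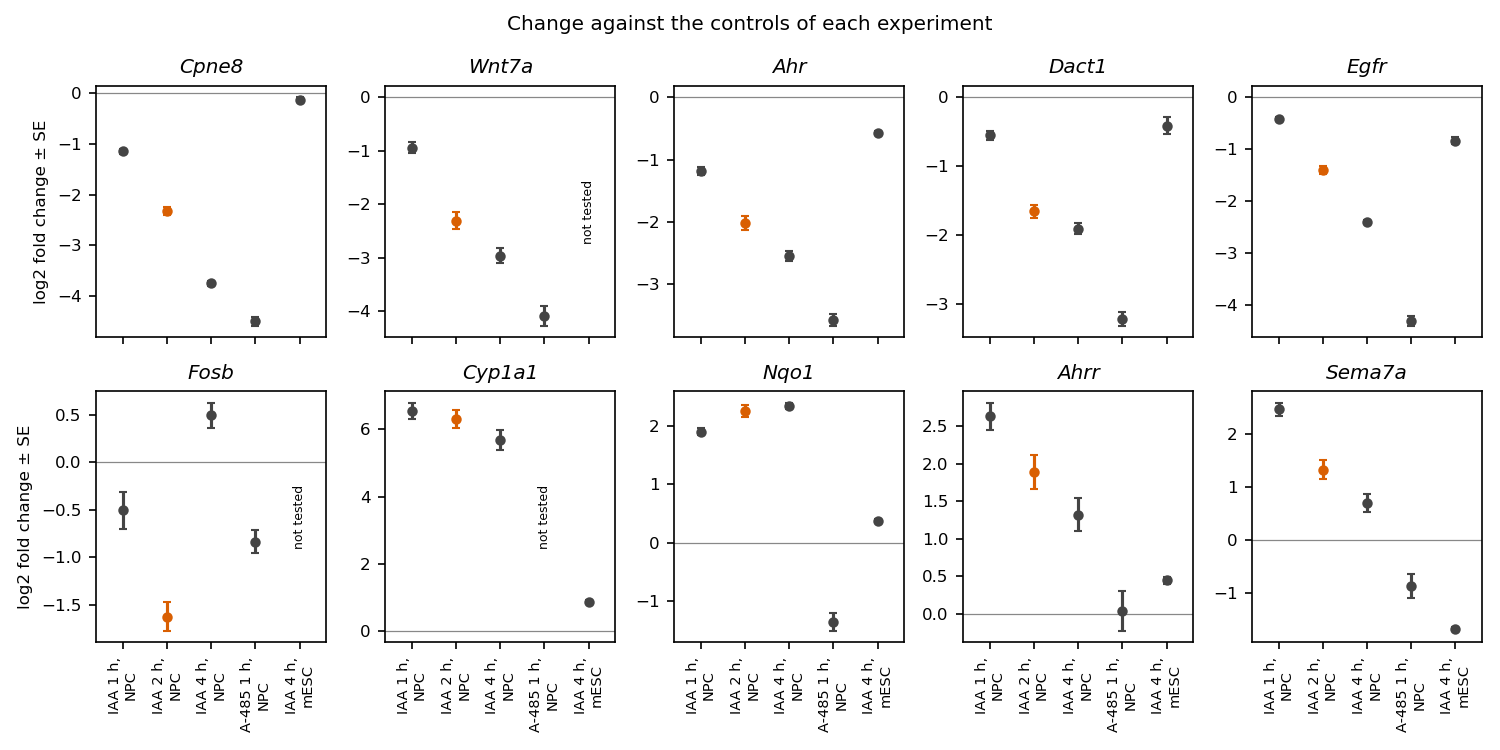
Log2 fold change ± SE of 10 genes against the controls of each experiment (2 libraries per NPC group, 12 per mESC group), with the 2 h comparison in orange; vertical scales differ between panels, and the NPC comparisons share 2 controls. Cpne8, Wnt7a, Ahr and Egfr have lower values at each later time, though Wnt7a and Ahr did not differ between 2 and 4 h past the test. Fosb is at -0.51, -1.63 and 0.50 at 1, 2 and 4 h, and Cyp1a1, Nqo1 and Ahrr stay above 0 at all 3 times of IAA. The 1 h and A-485 values were counted over at most the first 90 kb, the others over whole gene bodies.

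The independent comparison is with mESCs of the same degron line after 4 h of IAA (12 libraries in each group), where 0.585% of 15732 genes were called lower and 0.261% higher. Of the 187 genes called lower in NPCs at 2 h, 116 were tested in mESCs and 4 were called lower there, Hpgd (-1.33), Ptger2 (-1.03), Sema3c (-1.18) and the ring finger gene Rnf39 (-1.46). These are 4 of 187 and 4 of the 92 mESC genes. Galnt18 went from lower in NPCs (-1.02) to higher in mESCs (1.20). Of the 53 called higher, 23 were tested and 2 were called lower in mESCs: Sema7a (-1.67) and the cyclooxygenase gene Ptgs1 (-2.18), and 0 were called higher. The called AhR genes changed in mESCs in the same direction as in NPCs, past the test but under 2-fold. Their mESC values were 0.87 for Cyp1a1, 0.37 for Nqo1, 0.45 for Ahrr and -0.57 for Ahr.

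The difference between the NPC effect at 2 h and the mESC effect at 4 h was tested as an interaction, in which cell type and time cannot be told apart. It was called lower for 492 of 17455 genes (2.82%) and higher for 164 (0.94%). The NPC libraries in it are those of the 2 h comparison, so its results for genes chosen there are not independent of that choice. Among called genes with a mean of at least 2 CPM, Cyp1a1 had the largest positive difference (5.46 ± 0.37, adjusted p = 1.64e-17): in mESCs it was at 30.3 ± 2.67 CPM (SD, n = 12) in the controls and at 55.0 ± 5.97 CPM after IAA. Spry4 followed (3.86 ± 0.09), since it went from 49.8 ± 3.34 to 2.56 ± 0.415 CPM (SD, n = 12) in mESCs and from 585 ± 4.78 to 451 ± 46.0 CPM (SD, n = 2) in NPCs. Ptgs1 (3.55), Sema7a (3.00) and the activin subunit gene Inhbb (2.81) came next. The 5 largest negative differences among such genes were those of Gm1715, Crhr2, Apoc1, CT025671.1 and the pluripotency regulator Prdm14, which were at most 0.427 CPM on average in NPC controls and at 0 counts after IAA there, and their fitted sizes depend on that 0. Sema3c, at -1.19 in NPCs and -1.18 in mESCs, had a difference that did not pass the test, with an adjusted p of 0.909.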

How the data were processed

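EU-seq libraries of GFP-AID-Rad21 NPCs and mESCs were analysed. The deposited values are counts: alignment by the authors used bwa meme and mm10, alignments with a mapping quality under 10 were dropped with samtools 1.4, rRNA and tRNA reads were taken out with bedtools, and the remaining reads were counted over the gene body of 1 representative transcript per gene (GENCODE M25) with HTSeq. The 1 h and A-485 libraries were counted over at most the first 90 kb. The methods also name a limit of 240 kb for 2 h, whereas these columns are named without one. For tested genes over 800 kb, the control counts were a median of 8.71 times those over the first 90 kb, against 2.67 for even coverage of 240 kb, and the median log2 fold change was -0.53, against -2.14 had only treated libraries been limited. Strand use in gene counting is not stated in the sources used here, and they do not say whether NPC replicates came from separate cultures, so p-values measure the spread between these libraries, which may be technical. Another 26 columns of the table were not used.

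Genes with a mean count above 20 in either group were tested with edgeR 4.0.16 (two-sided quasi-likelihood test, TMM) in R 4.3.3, on the libraries of the comparison. The median log2 fold change of expressed genes (over 15 TPM on the gene body) was subtracted from fold changes and not from p-values. CPM were computed per comparison. The procedure was tested on simulated counts drawn from the fitted spread, with changes put only into genes of higher count. That test does not cover genes with low counts. Names and positions came from GENCODE M21 (27455 of 27665 transcripts matched); for symbols with several transcripts, lists used the one with the highest count. Named genes are the 14 largest decreases and 10 largest increases called with at least 2 CPM and groups apart, called members of the lists, genes the study shows, the members with the highest level where not called, and up to 5 genes per direction in the other comparisons. Members and lists were chosen with earlier results of these data known. Alternatives were DESeq2 1.42.0, its size factors, no filter, a replicate block, no centring, a fit with the 4 h libraries, a robust spread, genes up to 240 kb, the length trend removed, and each library left out. Cyp1b1, Pou3f3, Zfp608, Sema3a, Plxnb3 and Aif1 were not analysed here. Some other genes are not reported here.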

Additional observations from a re-analysis of the deposited data

Results flagged for a closer look

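Genes were flagged where the effect of IAA differed between NPCs at 2 h and mESCs at 4 h, or between times in NPCs, by edgeR's test of that difference (adjusted p under 0.05, at least 2-fold). No group had between 4 and 10 libraries, so single libraries were not tested as outliers.

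Among the largest decreases in NPCs, the difference from mESCs on the log2 scale was -2.19 for Cpne8, -2.78 for Wnt7a, -2.45 for Edn1, -1.45 for Ccdc85a, -1.45 for Ahr and -2.09 for Dapk2. It was -1.40 for Kcns3, -1.58 for Gm41414, -1.70 for 4930523C07Rik, -1.24 for Dact1, -1.90 for Il15 and -1.37 for Adra1d. Hpgd and Rspo2 were not flagged. Among the largest increases it was 5.46 for Cyp1a1, 2.41 for Ido2, 2.68 for Ccno, 1.67 for Dpep1, 2.13 for Mlph, 1.98 for Ifi207, 1.90 for Nqo1, 1.47 for Ahrr and 1.25 for Cdh26. Klri1 was not flagged. Wnt7a, 4930523C07Rik, Adra1d, Ccno, Mlph, Ifi207 and Cdh26 were below the count filter in mESCs, so their differences rest on low mESC counts.

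The largest differences among genes with a mean of at least 2 CPM were 3.86 for Spry4, 3.55 for Ptgs1, 3.00 for Sema7a and 2.81 for Inhbb. The largest negative ones were -6.05 for Gm1715, -5.39 for Crhr2, -4.58 for Apoc1, -4.44 for CT025671.1 and -4.12 for Prdm14, all of them at 0 counts in the NPC libraries after IAA, so that the sizes are not measured.

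Between 4 h and 2 h of IAA in NPCs, the differences were -1.42 for Cpne8, -1.80 for Ccdc85a, -1.21 for Dpep1, -2.03 for Gm48749, -1.97 for Kif26b, -1.72 for Col25a1 and -1.68 for Cntnap4. They were 2.12 for Fosb, 1.34 for Gm14342, 1.26 for ENSMUST00000239005.1, 1.13 for AC141471.6 and 1.00 for 2210408F21Rik. Between 2 h and 1 h they were -1.36 for Wnt7a, -1.68 for Edn1, -1.11 for Dact1, -2.43 for Gm10800, -1.95 for Nptx1, -1.85 for Nipal1, -1.60 for Tslp and 1.48 for Gm13780.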

How the results depend on the processing

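Of 41 named called genes, 35 lost it in no alternative that gave an adjusted p (DESeq2 gave none for Prdm1 and Il19), among them Cpne8, Wnt7a, Ahr, Egfr, Nrp1, Cyp1a1 and Nqo1. The other 6 (Wnt3, Areg, Inhba, Ephb1, Sema3c and Sema3e) lost the call in 1 to 4 alternatives, and Gli3, not called, changed sign with the length trend removed (0.0592, adjusted p = 0.755). Counts of called lower and higher genes after 2 h were 138 and 31 with DESeq2 (which gave no adjusted p for 931 genes), 123 and 50 with the length trend removed, and 147 and 48 for genes up to 240 kb. Leaving out each library gave 176 to 279 lower and 51 to 86 higher, the highest without the first IAA library. At 4 h against 2 h the higher calls were 3 with DESeq2, 8 with its size factors and 27 without the filter, and leaving out each library gave 43 to 80 lower and 11 to 86 higher. Without the first 2 h library they were 80 and 86, and without the second 54 and 36. At 2 h against 1 h the higher calls were 0 with DESeq2 (613 genes at an unadjusted p under 0.05) and 7 without the filter, and leaving out each library gave 31 to 59 lower and 2 to 31 higher, the most without the first 2 h library (59 and 31). For the difference between cell types the range was 423 to 553 lower and 153 to 188 higher.

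NPC groups share replicate numbers, and no source links equal numbers. The differences between replicates 1 and 2 in controls and IAA libraries correlated at r = 0.206 over 9830 expressed genes, and there are only 2 pairs. With a replicate block 225 genes were lower and 61 higher after 2 h, 56 and 29 at 4 h against 2 h, 38 and 2 at 2 h against 1 h, and 492 and 162 for the difference between cell types. The limits are 2 libraries per NPC group, a second IAA library of 10755624 counts, and low control counts behind several of the largest increases.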
